A study of Mus musculus with 4 samples.

Results

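The HoxC cluster is 1 of the 4 Hox gene clusters of the mouse, and all 9 of its protein-coding genes were examined: *Hoxc4*, *Hoxc5*, *Hoxc6*, *Hoxc8*, *Hoxc9*, *Hoxc10*, *Hoxc11*, *Hoxc12* and *Hoxc13*. They were matched by name, through the RefSeq symbol of each counted transcript, and the rule uses no measured value. The cluster itself was chosen with earlier results of these data known. Counts of called members set beside those over all transcripts are therefore descriptive. Each gene matched exactly 1 of the 32757 transcript IDs, so no gene is split over several rows. RNA sequencing had been done on immortalized mouse dermal fibroblasts (imMDFs), fibroblasts of the skin that divide without limit, in 2 libraries of *Tmpo* WT cells (Lap2alpha +/+) and 2 of *Tmpo* KO cells (Lap2alpha -/-). Each genotype is represented by a library of passage 34 (replicate 1) and a library of passage 42 (replicate 2), all 4 libraries came from untreated cells in the same medium, and no agent other than the knockout separates the groups in the labels. The sources do not say how many lines of each genotype were used, and the genotype and any other difference between the WT and KO lines cannot be told apart. Whether the replicates were grown as separate cultures is not stated, and the p-values then rest on a spread among libraries that may be technical.

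Hox genes encode homeodomain transcription factors that give cells along the head to tail axis their positional identity. Within a cluster the genes lie on the same strand in the order in which they act along the axis, with the low-numbered genes at the 3′ end active most anteriorly and the high-numbered genes at the 5′ end most posteriorly and in distal limbs. Dermal fibroblasts keep in culture a Hox pattern of the body site they came from. The clusters are held silent by Polycomb complexes and kept active by trithorax complexes, and CTCF and cohesin shape their domains. LAP2alpha, the product of *Tmpo* that is missing in the KO cells, is a protein of the nuclear interior that binds A-type lamins. The comparison asks which genes differ in transcript level when it is absent.

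Reads given to a transcript numbered 12168433 and 15677378 in the WT libraries and 15786136 and 19603812 in the KO libraries, and levels are given as CPM, which divide the counts by the scaled total of the library, or as CPM per kb of exon where genes are compared with each other. The LAP2alpha transcript of *Tmpo* had 903 and 1324 counts in WT and 6 in each KO library, and since the knockout is a deletion of exon 4, reads of that exon are absent whatever the transcript level. Of 15 fibroblast markers, 14 were abundant enough to be tested, and their summed level was between 14877 and 16171 CPM in WT and between 13744 and 18821 CPM in KO, with *Pdgfrb* at 0 in every library. The median log2 fold change of the 14 was −0.07 and 1 passed, the surface protein gene *Thy1*, which rose by 1.80 on the log2 scale (adjusted p = 0.00469, edgeR's quasi-likelihood test), while DESeq2 and edgeR's exact test each called 2. Markers of 4 other groups of skin cells had low sums. The 10 keratinocyte markers summed to 17.6 to 19.0 CPM in WT and 13.8 to 21.0 in KO, the 8 endothelial markers to 12.3 to 13.4 and 12.3 to 15.7, the 8 immune markers to 11.9 to 16.8 and 17.7 to 24.5, and the 8 melanocyte and Schwann cell markers to 35.9 to 43.2 and 37.5 to 50.6. Most of the last sum was *Tyr*, with 26.4 and 35.1 CPM in WT and 40.3 and 30.0 CPM in KO. *Trp63*, *Tek*, *Cd68* and *Itgam* had no count in any library, but these genes and *Pdgfrb* have several IDs each, and reads shared between the IDs of a gene were set aside as ambiguous, so a count of 0 does not show that they were silent. Of the 19 members of these 4 lists that were tested, 0 passed in edgeR's quasi-likelihood test, beside 2.75% of all tested transcripts. The exact test of edgeR and DESeq2, which gave 3 of them no adjusted p, also called 0. In the quasi-likelihood test 2 had an unadjusted p under 0.05, the adhesion protein *Cdh1* (log2 difference −0.85) and the macrophage receptor *Csf1r* (0.89). The others with the smallest p on their lists were the keratin *Krt1* (−0.35), the endothelial genes *Tie1* (0.88) and *Esam* (0.46), the monocyte receptor *Cd14* (0.30) and the pigment genes *Tyr* (0.19) and *Dct* (0.37). The immune sum was higher in both KO libraries than in both WT libraries, and its part in the HoxC results was not tested. In such bulk libraries, fewer cells that express a gene and less RNA per cell cannot be told apart.

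The HoxC genes did not differ in one direction. The 2 genes at the 3′ end of the cluster, *Hoxc4* and *Hoxc5*, rose 3.23-fold and 2.74-fold in *Tmpo* KO imMDFs, and *Hoxc8*, further 5′, was 2.12-fold lower. *Hoxc6*, which lies between *Hoxc5* and *Hoxc8*, and the 5 genes from *Hoxc9* to *Hoxc13* did not pass the test. All 9 genes had at least 1 CPM in both libraries of a genotype and were tested, 7 of them with at least 1 CPM in all 4 libraries. With edgeR's quasi-likelihood test at an adjusted p under 0.05, 2 were higher in KO and 1 lower, that is 3 of 9, beside 2.75% of the 13855 tested transcripts called in either direction, 1.51% higher and 1.24% lower. The median log2 fold change of the 9 genes was −0.17, and it was 0.02 over all tested transcripts. For 5 of the 9 genes the WT and KO libraries did not overlap, 2 of them higher in KO and 3 lower, and this was the case for 41.9% of all tested transcripts, 21.9% higher and 19.9% lower, so on this measure the cluster is near the background. DESeq2 and edgeR's exact test also called 3 of the 9 genes, and DESeq2 gave *Hoxc11* no adjusted p.

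**Figure D1:**
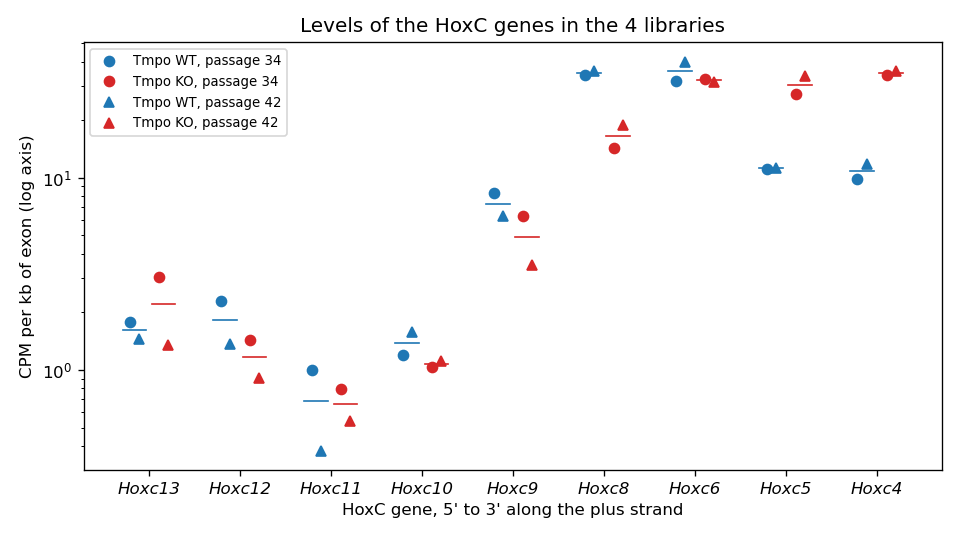
Level of each HoxC gene in CPM per kb of exon on a log axis, with genes in order from 5′ to 3′ along the plus strand. Blue is Tmpo WT, red is Tmpo KO, circles are passage 34, triangles are passage 42, and the short lines are the means of the 2 libraries. Both KO symbols lie above both WT symbols for Hoxc4 and Hoxc5 and below them for Hoxc8, while Hoxc10 to Hoxc13 stay at or under 3.06 CPM per kb in every library.

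*Hoxc4*, which takes part in patterning of the cervical and upper thoracic skeleton, is the last gene at the 3′ end of the cluster (NM_013553, chr15:102864826-102867274 of mm9, plus strand, 2 exons). Its WT libraries held 231 counts at passage 34 and 363 at passage 42, and its KO libraries 1092 and 1358 in the same order. These are 19.5 and 23.2 CPM in WT and 67.3 and 70.5 CPM in KO. Both KO libraries lay far above both WT libraries, and the libraries of a genotype were close to each other. The mean was 21.3 ± 2.63 CPM in WT and 68.9 ± 2.29 CPM in KO (SD, n = 2 each), a 3.23-fold increase, or 1.69 on the log2 scale (standard error 0.227, 95% interval 1.19 to 2.19, adjusted p = 0.00254, edgeR's quasi-likelihood test). The log2 difference was 1.78 at passage 34 and 1.60 at passage 42, each from 1 library per genotype.

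The promoter of *Hoxc4* is shown because *Hoxc4* and *Hoxc5* rose together, and *Hoxc4* was the member with an entry in the RefSeq promoter table used. The 250 bases before its start (RefSeq, GRCm38.p6, chr15:103034145-103034394, plus strand) read as follows, with a match to the motif AGGTCA, the core bound by nuclear receptors such as the retinoic acid receptors, shown in capitals as it reads on the opposite strand.

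Hoxc4 promoter: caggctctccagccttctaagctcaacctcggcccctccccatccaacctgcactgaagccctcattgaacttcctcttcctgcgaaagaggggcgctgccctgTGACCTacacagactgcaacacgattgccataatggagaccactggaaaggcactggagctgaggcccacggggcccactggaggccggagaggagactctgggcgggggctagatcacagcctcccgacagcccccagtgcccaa

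Of these bases 62% are G or C, and the median over the same stretch of the 32851 promoters of the table is 52.4%. With 50 further bases after the start and searched on both strands, AGGTCA was found in 16.3% of all these promoters. The HOX-PBX motif TGATNNAT, found in 8.85% of promoters, and the homeodomain core TAATTA, found in 5.29%, had no match in the 300-base window of *Hoxc4*. The match overlaps no match to another motif, and a match is a description of letters, not of a bound site.

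*Hoxc5*, which acts with the other genes of its paralog group in patterning the forelimb and the neck to thorax transition, lies 16.96 kb 5′ of *Hoxc4* (NM_175730, chr15:102844246-102847860, 2 exons). It had 383 and 517 counts in the WT pair and 1297 and 1898 in the KO pair, with passage 34 first. On the CPM scale the WT libraries were nearly equal, at 32.3 and 33.0, and the KO libraries stood at 79.9 and 98.6. The groups did not overlap, and the KO library of passage 42 was the higher of its pair. The mean rose from 32.6 ± 0.530 to 89.3 ± 13.2 CPM (SD, n = 2 each), 2.74-fold or 1.45 on the log2 scale (standard error 0.217, 95% interval 0.98 to 1.93, adjusted p = 0.00469, edgeR's quasi-likelihood test), with log2 differences of 1.31 at passage 34 and 1.57 at passage 42. Without WT replicate 2 the estimate stayed at 1.47 but the call was lost (adjusted p = 0.0689, edgeR's quasi-likelihood test). In the annotation, 449 of the 2923 exon bases of *Hoxc5* are shared with *Gm20398*, a noncoding gene of the same strand, and reads there could come from either.

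*Hoxc8*, which patterns the lower thoracic vertebrae and the motor neurons of the brachial spinal cord, lies in the middle of the cluster (NM_010466, chr15:102821053-102824698, 2 exons). In WT it had 933 and 1296 counts, or 78.6 and 82.7 CPM. In KO it had 533 and 834 counts, or 32.8 and 43.3 CPM. Both KO libraries lay below both WT libraries, the opposite arrangement to *Hoxc4* and *Hoxc5*. The mean fell from 80.7 ± 2.94 to 38.1 ± 7.40 CPM (SD, n = 2 each), a 2.12-fold decrease, or −1.08 on the log2 scale (standard error 0.222, 95% interval −1.57 to −0.59, adjusted p = 0.0252, edgeR's quasi-likelihood test). The log2 difference was −1.26 at passage 34 and −0.93 at passage 42. The call was lost without WT replicate 1 (−1.10, adjusted p = 0.139) and without WT replicate 2 (−1.04, adjusted p = 0.247) in the same edgeR test, with the size of the difference little moved.

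*Hoxc8* is also the 1 member with seed matches of miR-196a-5p, a microRNA of its own cluster. *Mir196a-2* lies between *Hoxc10* and *Hoxc9*, and its product miR-196a-5p, a microRNA known to repress Hox transcripts, has the mature sequence below (RefSeq, GRCm38.p6, chr15:102973365-102973386, plus strand), with the seed, bases 2 to 8, in capitals. Under it stand the 3 stretches of the *Hoxc8* 3′ UTR that hold the complement of the seed, ACTACCT, in capitals, read from NCBIM37, the build of the counts, on the plus strand. They are shown because the gene that fell and the microRNA are parts of the same cluster.

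miR-196a-5p: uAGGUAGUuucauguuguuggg
Hoxc8 site 1, chr15:102823405-102823429: gacactcacaactctaACTACCTgt
Hoxc8 site 2, chr15:102824162-102824186: aataaatctttaacatACTACCTaa
Hoxc8 site 3, chr15:102824300-102824324: tccagcgtattttatcACTACCTat

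The motif ACTACCT, searched on the transcript strand, occurs in the annotated 3′ UTRs of 905 of 19416 genes, or 4.66%. Of the 19416 genes 8, or 0.0412%, hold 3 or more matches, and *Hoxc8* with 3 matches in 1412 bases is among them. None of the other 8 HoxC genes has a match, and over all clusters 8 of 39 Hox genes with an annotated 3′ UTR have one. Among those tested, *Hoxa7* holds 4 matches and had a log2 fold change of −0.30 (adjusted p = 0.88, edgeR's quasi-likelihood test). *Hoxa4* (−0.49) and *Hoxa5* (−0.01), with 1 match each, did not pass either. *Hoxb6* and *Hoxb7*, with 1 match each, rose by 3.69 and 4.14, in a cluster where all 8 tested genes rose. Both reached the limit for a test in KO only. *Hoxa9* and *Hoxb1*, with 1 match each, were not tested between the genotypes. A part of the matches in the levels was not tested. The RefSeq entry of *Mir196a-2* itself had 1 and 2 counts in the WT pair and 0 and 1 in the KO pair and was not tested. RNA longer than 200 bases was sequenced, so the mature microRNA was not measured and its level in these cells is not known from the data. *Mir615*, in an intron of *Hoxc5*, had 10 and 1 counts in the WT pair and 18 and 2 in the KO pair, under the limit for a test. Its products had no shared seed with miR-196a, and the seed match of miR-615-5p, GGACCCC, lies in the 3′ UTRs of *Hoxc6* and *Hoxc11* among the members and of 5.46% of all genes.

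*Hoxc6*, a gene of the thoracic segments and of the skin and mammary gland that they carry, lies only 1.93 kb 5′ of *Hoxc5* (NM_010465, chr15:102839910-102842312). It had 633 and 1052 counts in the WT pair and 891 and 1011 in the KO pair. On the CPM scale these were 53.3 and 67.2 in WT and 54.9 and 52.5 in KO, so the groups overlapped. The log2 fold change was −0.17, with a standard error of 0.216 and a 95% interval of −0.64 to 0.31 (adjusted p = 0.859, edgeR's quasi-likelihood test). The interval leaves out an increase of the size seen for *Hoxc4* or *Hoxc5* and a decrease of the size seen for *Hoxc8*.

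*Hoxc9*, which in the spinal cord restricts limb-level Hox genes to the limb segments, had 234 and 235 counts in the WT pair and 242 and 160 in the KO pair (NM_008272, chr15:102807463-102815530). These are 19.7 and 15.0 CPM in WT and 14.9 and 8.31 CPM in KO. The KO libraries lay below the WT libraries, but the higher KO value and the lower WT value nearly met. The log2 fold change of −0.58 had a standard error of 0.338 and did not pass the test (95% interval −1.32 to 0.16, adjusted p = 0.559, edgeR's quasi-likelihood test).

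The 4 genes at the 5′ end were expressed at low levels in all libraries, and none passed the test. *Hoxc10*, a gene of lumbar segments and the hindlimb, had 27 and 47 counts in the WT pair and 32 and 41 in the KO pair, and its log2 fold change was −0.37 (standard error 0.399). *Hoxc11*, a gene of the hindlimb and sacral region, had 24 and 12 counts in the WT pair and 26 and 21 in the KO pair, and its log2 fold change was −0.02 (standard error 0.519). *Hoxc12*, known from the developing hair follicle, had 28 and 22 counts in the WT pair and 24 and 18 in the KO pair, and its log2 fold change was −0.63 (standard error 0.461). *Hoxc13*, which drives keratin genes of hair and nails, had 52 and 56 counts in the WT pair and 122 and 64 in the KO pair, and its log2 fold change was 0.44 (standard error 0.433). Its KO library of passage 34 stood above the other 3 libraries, which were alike at 3.32 to 4.38 CPM beside 7.52 CPM. Of the exon bases of *Hoxc10*, 166 of 1909 are shared with *Gm20398*. The adjusted p-values of the 4 genes lay between 0.681 and 0.997 in edgeR's quasi-likelihood test, and at these counts a change of the size seen for *Hoxc8* lay inside the 95% intervals of *Hoxc10*, *Hoxc11* and *Hoxc12*, whose lower ends were −1.24, −1.16 and −1.64.

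The 9 genes span 115.7 kb of chromosome 15, from 102751534 to 102867274. From the 5′ end the log2 fold changes ran 0.44, −0.63, −0.02, −0.37, −0.58, −1.08, −0.17, 1.45 and 1.69. The change from the lowest to the highest values thus took place between *Hoxc8* and *Hoxc5*, with *Hoxc6* between them, and the distance from the end of *Hoxc8* to the start of *Hoxc6* is 15.21 kb.

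**Figure D2:**
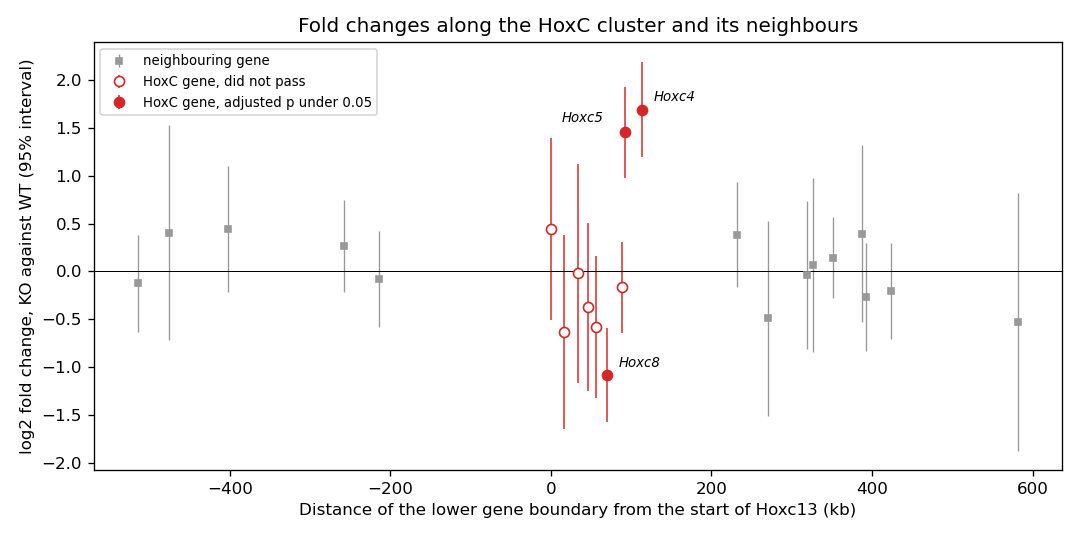
Log2 fold change, KO against WT, with its 95% interval for the 9 HoxC genes in red and 14 neighbouring genes in gray, against the distance in kb of each gene's lower boundary from the start of Hoxc13. Filled circles passed the test, and Hoxc8 at −1.08 is followed to the right by Hoxc5 at 1.45 and Hoxc4 at 1.69, while the intervals of all 14 neighbours include 0.

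Ratios between members within a library do not depend on library scaling. Per kb of exon, *Hoxc4* was lower than *Hoxc8* in WT, with log2 ratios of −1.79 and −1.62 at passages 34 and 42, and higher in KO, with log2 ratios of 1.25 and 0.92. The difference between the genotypes in this log2 ratio was 2.79. *Hoxc5* against *Hoxc8* changed in the same way, by 2.54. *Hoxc5* against its close neighbour *Hoxc6* had log2 ratios of −1.53 and −1.83 in WT and −0.26 and 0.11 in KO, so that the gene with the smaller level in WT came level with its neighbour. *Hoxc6* against *Hoxc8* differed by 0.94, and *Hoxc4* against *Hoxc5* by only 0.25. In all, 10 such pairs were computed, and they share members. With 2 libraries against 2, an exact permutation test gives no two-sided p under 0.333, which the pairs named here all reached (p = 0.476 after Benjamini-Hochberg adjustment over the 10 pairs), so this test could not pass for any pair, and no other test of the ratios was run.

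The make-up of the HoxC counts was similar in the libraries of a genotype and different between genotypes. The shares are of counts and are not corrected for gene length. *Hoxc8* made up 36.7% and 36.0% of the HoxC counts in WT and 12.5% and 15.4% in KO. *Hoxc4* and *Hoxc5* together made up 24.1% and 24.4% in WT and 56.1% and 60.2% in KO. *Hoxc6* took 24.9% and 29.2% in WT and 20.9% and 18.7% in KO. *Hoxc9* took 9.19% and 6.53% in WT and 5.68% and 2.96% in KO, and *Hoxc10* to *Hoxc13* together took between 2.66% and 5.15%. The widest 95% Wilson intervals were 1.87 percentage points to either side for *Hoxc8* and 1.66 for *Hoxc4* and *Hoxc5*, and they cover counting error only. The shares rest on 2545 and 3600 HoxC counts in the WT pair and 4259 and 5405 in the KO pair. The summed level of the 9 genes was 214 and 230 CPM in WT and 262 and 281 CPM in KO, a smaller contrast than that in *Hoxc4*, *Hoxc5* or *Hoxc8* alone.

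**Figure D3:**
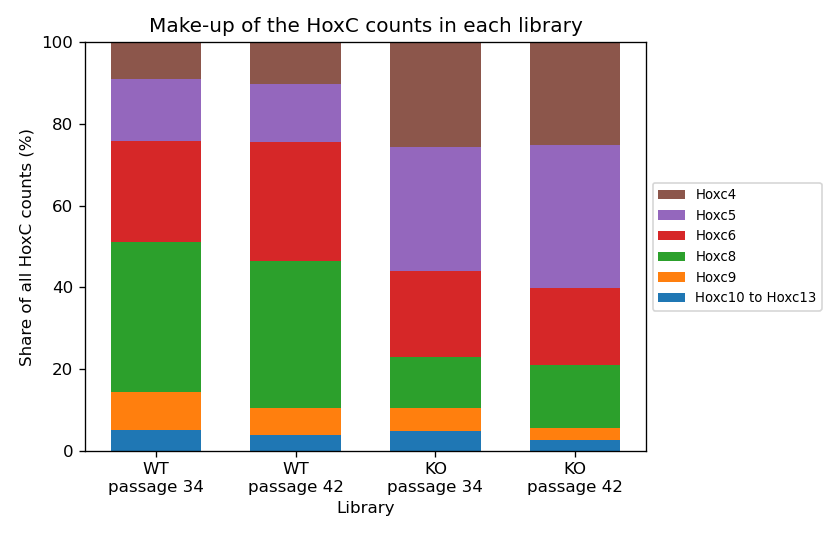
Share of all HoxC counts, in percent, taken by each gene in each of the 4 libraries, stacked to 100, with Hoxc10 to Hoxc13 as 1 block. Hoxc4 and Hoxc5 together grow from 24.1% and 24.4% of the bar in the WT libraries to 56.1% and 60.2% in the KO libraries, and Hoxc8 shrinks from 36.7% and 36.0% to 12.5% and 15.4%.

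Per kb of exon, the order of the levels changed at its top and hardly at its lower end. In WT, *Hoxc6* (36.0 ± 5.85 CPM per kb, SD, n = 2) and *Hoxc8* (35.1 ± 1.28) led, and their libraries overlapped. *Hoxc5* (11.2 ± 0.181) and *Hoxc4* (10.8 ± 1.33) came next, again overlapping, and *Hoxc9* (7.31 ± 1.40) followed below them. In KO, *Hoxc4* (34.9 ± 1.16) led, above *Hoxc6* (32.1 ± 1.01) and *Hoxc5* (30.5 ± 4.51), which overlapped, and *Hoxc8* (16.6 ± 3.22) stood apart below these 3 and above *Hoxc9* (4.89 ± 1.97). The 4 genes at the 5′ end had means between 0.690 and 1.82 CPM per kb in WT and between 0.666 and 2.20 in KO. *Hoxc11* was the lowest gene in both genotypes, and the neighbouring ranks of *Hoxc12*, *Hoxc13* and *Hoxc10* overlapped in both.

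No HoxC gene passed the test of passage. In a fit with genotype and passage as terms, 0 of the 9 genes passed in edgeR's quasi-likelihood test, beside 2.31% of all tested transcripts (1.77% higher at passage 42 and 0.541% lower), and DESeq2, which gave an adjusted p for *Hoxc4*, *Hoxc5*, *Hoxc6* and *Hoxc8* and none for the other 5, called 0. At an unadjusted p under 0.05 there were 2, both lower at passage 42: *Hoxc9* with −0.62 (standard error 0.301, adjusted p = 0.391) and *Hoxc13* with −0.76 (standard error 0.380, adjusted p = 0.415). The log2 differences between the passages were 0.16 for *Hoxc4*, 0.17 for *Hoxc5*, 0.13 for *Hoxc6*, 0.24 for *Hoxc8*, 0.25 for *Hoxc10*, −0.94 for *Hoxc11* and −0.70 for *Hoxc12*. With 1 library per genotype and passage, a difference of the genotype effect between the passages could not be tested. Passage and any other difference between the libraries of replicate 1 and replicate 2 cannot be told apart.

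Noncoding RNAs and protein-coding neighbours of the cluster did not pass the test. *Hotair*, a long noncoding RNA read from the opposite strand between *Hoxc12* and *Hoxc11*, had 24 and 28 counts in the WT pair and 27 and 23 in the KO pair (NR_047528, log2 fold change −0.41, standard error 0.419, adjusted p = 0.799, edgeR's quasi-likelihood test). No transcript ID was matched to *Hoxc12as*, *Hoxc13os* or *Hoxc4as*. Of 16 listed neighbours 15 had an ID and 14 were tested. In edgeR's quasi-likelihood test 0 were called, beside 2.75% of all tested transcripts, and with 14 genes a count of 0 is near that share. The exact test of edgeR and DESeq2, which gave 2 of them no adjusted p, also called 0. Of the neighbours, 0 had an unadjusted p under 0.05 in the quasi-likelihood test. Their median log2 fold change was 0.02, and the range was −0.52 to 0.44.

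On the 5′ side of the cluster, the transcription factor *Sp1* had a log2 fold change of −0.12, the anti-Müllerian hormone receptor *Amhr2* 0.41, the Dicer partner *Tarbp2* 0.44, the ATP synthase subunit gene *Atp5mc2* 0.26 and the coactivator *Calcoco1* −0.08. On the 3′ side, the nearest tested gene *Smug1*, a uracil-DNA glycosylase, had 0.38, the heterochromatin protein gene *Cbx5* −0.49, the RNA-binding protein gene *Hnrnpa1* −0.04, the erythroid transcription factor *Nfe2* 0.07, the coatomer subunit gene *Copz1* 0.15, the fatty acid receptor *Gpr84* 0.39, the zinc finger gene *Zfp385a* −0.27, the integrin subunit gene *Itga5* −0.20 and the phosphodiesterase *Pde1b* −0.52. The smallest unadjusted p among them was 0.154, that of *Smug1* in edgeR's quasi-likelihood test. *Npff* had no count, and *Atf7* was matched to no ID. *Cbx5* and *Hnrnpa1* have 3 IDs each, and *Tarbp2* and *Pde1b* have 2 each. Their values are those of the ID with the most counts, without the ambiguous reads that the IDs share. For *Cbx5* this ID held 22 and 34 counts in the WT pair and 32 and 18 in the KO pair. For *Hnrnpa1* it is a noncoding transcript of the gene. *Amhr2*, *Nfe2*, *Gpr84* and *Pde1b* had between 6 and 51 counts per library, and their standard errors were 0.510, 0.412, 0.419 and 0.613 in the same order.

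Genes of the same number in different clusters are paralogs, and those of the 3 called members were compared next, as values from the same fit. In group 4, *Hoxb4* rose by 2.12 on the log2 scale (adjusted p = 0.00238) and *Hoxd4* by 1.47 (adjusted p = 0.0446), beside 1.69 for *Hoxc4*, while *Hoxa4* had −0.49 and did not pass (adjusted p = 0.697, all edgeR's quasi-likelihood test). In group 5, *Hoxb5* rose by 3.58 (adjusted p = 6.19e-04) beside 1.45 for *Hoxc5*, and *Hoxa5* had −0.01 (adjusted p = 0.999, edgeR's quasi-likelihood test). In group 8, *Hoxb8* rose by 2.63 (adjusted p = 0.00474, edgeR's quasi-likelihood test) where *Hoxc8* fell. *Hoxd8* had 3 to 7 counts on the most counted of its 3 IDs and was not tested. The 95% intervals of *Hoxb8* (1.76 to 3.51) and *Hoxc8* (−1.57 to −0.59) lie on opposite sides of 0, although the difference between them was not itself tested.

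*Hoxc8* was the 1 tested Hox gene called lower in KO, a call that was lost without either WT library, and no difference between the clusters was tested. *Hoxc9*, *Hoxc10*, *Hoxa4*, *Hoxa11* (−0.05) and *Hoxd13* (−0.28) also had both KO libraries below both WT libraries but did not pass. Of all tested transcripts, 19.9% had both KO libraries below both WT libraries. All 8 tested HoxB genes (7 in DESeq2) rose in KO with a median log2 fold change of 3.11, namely *Hoxb2* (1.63), *Hoxb3* (2.20), *Hoxb4*, *Hoxb5*, *Hoxb6* (3.69), *Hoxb7* (4.14), *Hoxb8* and *Hoxb9* (4.28). *Hoxb3*, *Hoxb5*, *Hoxb6* and *Hoxb7* reached 1 CPM in both KO libraries but not in both WT libraries. They were thus tested only because of their KO level, and the count of 8 and the median depend in part on the filter. *Hoxb1*, with 12 and 13 counts in the WT pair and 17 and 12 in the KO pair, was not tested. In HoxA, 1 of 9 tested genes rose, the hindbrain gene *Hoxa2* (1.36, adjusted p = 0.0419, edgeR's quasi-likelihood test), and the median was −0.01. In HoxD, 1 of 7 rose, *Hoxd4*, and the median was 0.43. Beside these counts per cluster, 1.51% of all tested transcripts were called higher in KO and 1.24% lower. The summed level of HoxB was 31.8 and 27.6 CPM in WT and 246 and 161 CPM in KO, while that of HoxA was 44.2 and 43.7 CPM in WT and 57.7 and 42.9 CPM in KO.

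**Figure D4:**
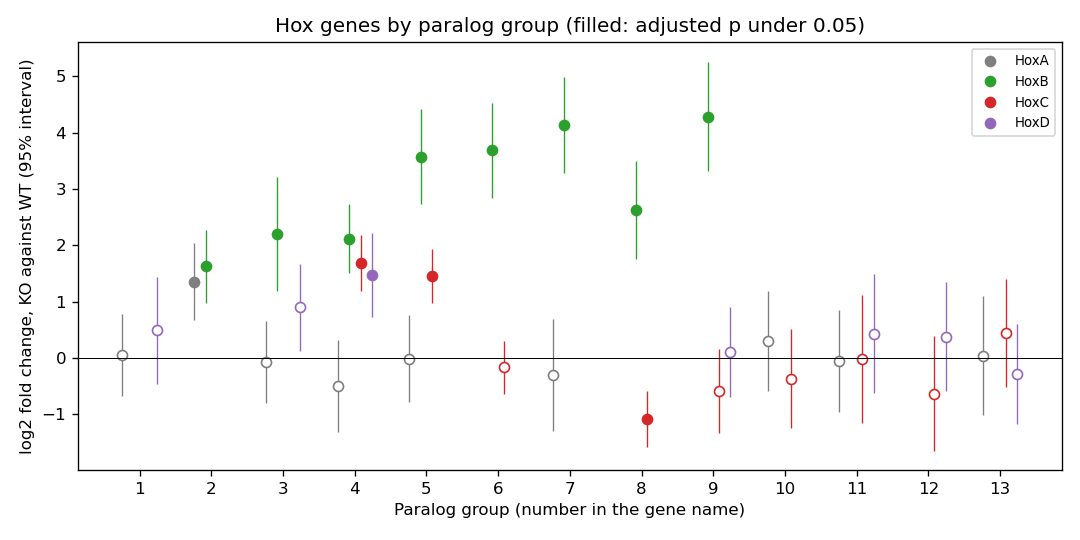
Log2 fold change, KO against WT, with 95% interval for every tested Hox gene, by paralog group, in gray for HoxA, green for HoxB, red for HoxC and purple for HoxD. Filled symbols passed the test at an adjusted p under 0.05, and Hoxc8 at −1.08 is the filled symbol below 0, while all 8 HoxB symbols are filled and above it.

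Proteins that work with or on Hox genes were taken from fixed lists. No tested member of the 5 lists passed between the genotypes, beside 2.75% of all tested transcripts. With 5 to 15 genes tested per list, a count of 0 is near that share. Members under the limit for a test or without an ID were not tested. Of 11 TALE homeodomain cofactors, which bind DNA together with HOX proteins, 5 were tested and 0 passed in edgeR's quasi-likelihood test, its exact test or DESeq2, with 0 at an unadjusted p under 0.05. *Tgif1*, a repressor of the family with 5 IDs, had a log2 difference of 0.53 on the ID with the most counts (adjusted p = 0.609, edgeR's quasi-likelihood test). *Meis2* and *Meis3* had no count on any ID, and since reads shared by several IDs of a gene were set aside as ambiguous, this does not show that they were silent.

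Of the 10 tested members of Polycomb repressive complex 2, which writes the repressive mark on H3K27, 0 passed in edgeR's quasi-likelihood test, its exact test or DESeq2, which gave 1 no adjusted p, and 1 had an unadjusted p under 0.05, the elongin adaptor *Epop* (1.18, adjusted p = 0.146). *Jarid2*, an accessory subunit with 3 IDs, had −0.88 on 1 of them (adjusted p = 0.469, edgeR's quasi-likelihood test). This ID held 23 and 26 counts in the WT pair and 20 and 14 in the KO pair. *Ezh2*, a catalytic subunit with 2 IDs, had no count on either. Reads shared by the IDs of a gene were set aside as ambiguous. Of 15 tested members of Polycomb repressive complex 1, 0 passed in edgeR's quasi-likelihood test, its exact test or DESeq2, and 3 had an unadjusted p under 0.05. The 2 with the smallest p, *Bmi1* (−0.69, adjusted p = 0.125) and the chromodomain subunit *Cbx2* (−0.56, adjusted p = 0.295), are both core members of the complex. Of 11 tested trithorax proteins and H3K27 demethylases and of 9 CTCF and cohesin genes, 0 passed in edgeR's quasi-likelihood test, its exact test or DESeq2, with 0 at an unadjusted p under 0.05. The demethylase *Kdm6a* had −0.35 (adjusted p = 0.563) and the methyltransferase subunit *Rbbp5* 0.24 (adjusted p = 0.783), and the cohesin subunits *Smc3* and *Stag2* had −0.43 (adjusted p = 0.454) and 0.39 (adjusted p = 0.793, edgeR's quasi-likelihood test). *Stag2* has 3 IDs, and its value is that of 1 ID with 29 and 43 counts in the WT pair and 62 and 58 in the KO pair.

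For each called member, the 3 transcripts with the most similar profile were sought among 10167 tested transcripts with a mean of at least 50 counts, by the root mean square difference of centred log2 CPM over the 4 libraries. Nearest to *Hoxc4* were *Rgs16* (0.0973), *Smpdl3b* (0.104) and *Colca2* (0.108). Nearest to *Hoxc5* were *Shox2* (0.0542), *Slc16a10* (0.0571) and *Kif26b* (0.0662), and nearest to *Hoxc8* were *Serinc5* (0.0249), *Trp53cor1* (0.0283) and *Sord* (0.0346). *Hoxc4* had no profile as close to it as *Hoxc5* and *Hoxc8* had. With 4 libraries such likeness rests on few values.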

How the data were processed

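Total RNA of 4 imMDF libraries had been depleted of rRNA, fragmented and sequenced. The deposited values are raw counts per RefSeq transcript ID, which the authors made by trimming with cutadapt, mapping to mm9 with TopHat2 version 2.0.9 and counting with HTSeq. Not given in the sources used here are the versions of cutadapt and HTSeq and the strand setting of the counting. Reads given to transcripts were between 31.4% and 36.7% of the reads in a file, ambiguous reads between 12.1% and 13.4% and reads in no feature between 49.9% and 56.5%, and these latter classes stayed out of library sizes and tests. A RefSeq table of GRCm38.p6 gave a symbol for 32308 of the 32757 IDs, and gene models and target sites were taken from GENCODE vM1 on NCBIM37. Positions, exon numbers and exon lengths of the HoxC genes are those of the GENCODE model with the longest coding sequence. The counted RefSeq ID printed beside them may differ from that model, and so may the length used for CPM per kb.

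Transcripts that reached 1 CPM in each replicate of a genotype, WT or KO, were tested with edgeR 4.0.16 in R 4.3.3 (TMM, factors 0.979 to 1.03, quasi-likelihood F-test over all 13855 transcripts, Benjamini-Hochberg adjusted p under 0.05). Standard errors came from the log2 fold change and the square root of F. A gene with several IDs is represented by the ID with the highest summed count, without the ambiguous reads that its IDs share. The biological coefficient of variation was 21.8%. Within-passage differences are of log2 CPM with a prior count of 2. Passage was tested with genotype as a term. The alternatives were RLE factors, library totals, DESeq2 1.42.0, exact and likelihood ratio tests in edgeR, 3 other filters, counts summed per symbol, a replicate block, each library left out and a prior count of 0.5. The procedure was tested on simulated data.

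The members and the gene lists were chosen with earlier results of these data known. Named are all 9 members, the listed noncoding RNAs, the tested neighbours, the paralogs of called members, on other lists the members that passed or else the 2 with the smallest p, and for each called member the 3 nearest profiles. *Hoxd8*, *Hoxa7*, *Hoxa9*, *Hoxa11*, *Hoxb1*, *Hoxd13*, untested genes at 0, and *Gm20398* were named after their values or positions were seen. Some items that the rule would name are not reported here. The ChIP experiments of the study were not analysed here.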

Additional observations from a re-analysis of the deposited data

Results flagged for a closer look

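*Hoxc6*, *Hoxc11* and *Hoxc13* had log2 differences between KO and WT of opposite sign at the 2 passages. *Hoxc6* had 0.043 at passage 34 and −0.35 at passage 42. *Hoxc11* had −0.31 at passage 34 and 0.45 at passage 42, from 12 to 26 counts per library. *Hoxc13* had 0.76 at passage 34 and −0.10 at passage 42, where its KO libraries held 122 and 64 counts and its WT libraries 52 and 56. Each value comes from 1 library per genotype, and the difference between the passages was not tested. None of the 3 genes passed the test of genotype or of passage.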

How the results depend on the processing

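*Hoxc4* was called in all 14 alternative analyses, with log2 fold changes of 1.59 to 1.82 and adjusted p-values of 1.45e-10 to 0.0326. *Hoxc5* was called in 13 (1.25 to 1.58, adjusted p 3.23e-09 to 0.0689) and *Hoxc8* in 12 (−1.34 to −0.91, adjusted p 2.01e-05 to 0.247), and no alternative turned the direction of these 3 genes. The number of HoxC genes called was 3 in every alternative but those without a WT library: leaving out 1 replicate gave between 1 and 3, with 2 left without WT replicate 1 and 1 without WT replicate 2. Over all 124 values of single HoxC genes between the genotypes under alternatives, 115 kept their side of the threshold and direction (1 of them, from DESeq2, without an adjusted p), 3 fell short of the threshold and 6, all of genes not called, changed sign. The number of all transcripts called was 381, and became 612 with the exact test, 638 with the likelihood ratio test of edgeR, 740 without a filter and between 109 and 1291 with 1 replicate left out. Calls were 175 without WT replicate 1, 109 without WT replicate 2, 842 without KO replicate 1 and 1291 without KO replicate 2, and the lone library was assumed to vary like the pair of the other genotype. With a replicate block, 1092 transcripts and the same number of HoxC genes, 3, were called. The replicate number is also the passage, which served as this block, as the tested passage term and for the within-passage differences. The differences between replicates 1 and 2 correlated at 0.175 between the genotypes across transcripts, which are not independent. The main test of genotype used no pairing by replicate number. The cause of these moves was not tested. No fit with genotype and passage could leave out a library, since no residual degrees of freedom would be left.

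With 2 libraries per genotype and 12 to 122 counts per library, the depth limits what can be said of *Hoxc10* to *Hoxc13*, whose standard errors were 0.399 to 0.519 beside 0.216 to 0.227 for the 4 abundant genes from *Hoxc4* to *Hoxc8*.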

Other observations

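Factors that set limb and axial position apart from the Hox genes were measured in the same fit, and 2 of 19 tested passed, in opposite directions, beside 2.75% of all tested transcripts. *Shox2*, a homeobox gene of the proximal limb, had 275 and 348 counts in the WT pair and 968 and 1324 in the KO pair. Its mean rose from 22.7 ± 0.667 to 64.2 ± 6.45 CPM (SD, n = 2 each), by 1.50 on the log2 scale (standard error 0.225, adjusted p = 0.00472, edgeR's quasi-likelihood test), a profile that was also the nearest to that of *Hoxc5*. *Emx2*, a homeobox gene of the shoulder girdle and the brain, had 750 and 983 counts in the WT pair and 473 and 274 in the KO pair. Its log2 fold change was −1.54 (standard error 0.311, adjusted p = 0.0228, edgeR's quasi-likelihood test), from 63.0 ± 0.289 to 21.7 ± 10.5 CPM (SD, n = 2 each). Over all 19 the median log2 fold change was 0.19.

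Of 11 tested trithorax proteins and H3K27 demethylases, 4 rose from passage 34 to passage 42 in the fit with genotype as a term, beside 2.31% of all transcripts called for passage. They were *Kmt2d* (0.99 on the log2 scale, adjusted p = 7.25e-05), *Kdm6b* (0.95, adjusted p = 0.00265), *Kmt2c* (0.74, adjusted p = 0.00569) and *Ash1l* (0.66, adjusted p = 0.0218, all edgeR's quasi-likelihood test). The HoxC genes had 0 calls in the same fit. Passage is also the replicate number, so it cannot be told apart from any other difference between replicates 1 and 2.

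Counts of 3 further noncoding transcripts were looked up after the others had been seen. *D930007P13Rik*, on the 3′ side of the cluster, had 21 and 34 counts in WT and 34 in each KO library. *Mir196a-1* of the HoxB cluster had 0 and 1 counts in the WT pair and 8 and 2 in the KO pair, and *Mir196b* of the HoxA cluster had 1 in each WT library and 0 in each KO library.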
